A study of Mus musculus with 6 samples.

Results

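The ubiquitin ligase gene Mdm2, 4 genes beside it on chromosome 10 (Slc35e3, Cpm, Nup107 and Rap1b), its relative Mdm4 and the p53 gene Trp53 were followed in 3T3-L1 cells with and without Ube3d. These 7 genes were taken by symbol from the 24421 genes of the deposited count table, and all 7 passed the filter on low counts, as did 12947 genes in all. They were chosen by their location and by the RPKM levels and KO against WT differences measured in these same libraries, so levels, ranks and differences are given as a description, without a test. 3T3-L1 is a mouse embryonic fibroblast line used as a preadipocyte model, and all cells were undifferentiated, growing and kept below full confluence. The wild-type group (WT) and the Ube3d knockout group (KO) had 3 libraries each, which the titles call biological replicates. Ribosomal RNA had been depleted before stranded libraries were made. The method of the knockout, and whether the line is 1 clone, were not given in the labels. The p-values below therefore measure the spread between these libraries only.

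MDM2 is the main ubiquitin ligase of p53. It binds the activation domain of p53, marks it for degradation and is itself a transcriptional target of p53, which closes a negative feedback loop. MDM4, also called MDMX, is a related RING protein that binds p53 and pairs with MDM2, and p53 is the transcription factor that restrains growth after DNA damage or oncogene activity. The mouse gene takes its name from the double minute chromosomes of a transformed 3T3 line in which it was first found amplified. RNA counts do not measure gene copies, and copy number was not analysed here.

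Total gene counts per library ran from 23767181 to 29389480. The noncoding RNA Rn45s held 7.28% to 8.91% of these counts in WT and 9.68% to 10.2% in KO. Levels below were scaled to totals that include it, so overlap or separation by a small margin can depend on it. Ube3d, listed under its older symbol Ube2cbp, had 145, 229 and 173 counts in WT and 56, 43 and 53 in KO (log2 fold change −1.86, SE 0.15, edgeR adjusted p = 6.6e-18). All 11 fibroblast and preadipocyte markers were above the filter, with Vim at rank 9 and S100a4 at rank 6 of all tested genes in WT by level per length. These markers differed between genotypes: 3 rose in KO and 7 fell (90.9% called by edgeR, beside 61.4% over all tested genes), with a median log2 fold change of −0.55. Col1a1 and Ly6a fell by 1.18 (SE 0.03) and 1.15 (SE 0.04) on the log2 scale, and Dcn rose by 2.48 (SE 0.04). Summed over the list, mature adipocyte markers reached at most 0.110 CPM (counts scaled to a library of 1000000), epithelial markers 0.186 CPM and endothelial markers 0.819 CPM in any library. The 4 macrophage and leukocyte markers summed to between 4.58 and 6.23 CPM in WT and between 6.47 and 7.27 CPM in KO, nearly all of it Cd68 and Csf1r, with Adgre1 at 0 counts. The part of these marker signals in the values below was not tested.

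The 5 locus genes lie in 1 stretch of chromosome 10 of GRCm38, and only Cpm is on the plus strand. In order, they are Cpm (chr10:117629500-117687352), Mdm2 (chr10:117688875-117710758), Slc35e3 (chr10:117733678-117746358), Nup107 (chr10:117750643-117792705) and Rap1b (chr10:117814597-117845974). Mdm2 and Cpm end towards each other with 1.52 kb between their 3′ ends. On the other side, the 3′ end of Slc35e3 lies 22.9 kb upstream of Mdm2, and Nup107 ends 4.28 kb upstream of Slc35e3. No exon of the 7 genes overlaps an exon of another listed gene. Mdm4 lies on the minus strand at chr1:132986105-133030587 and Trp53 on the plus strand at chr11:69580359-69591873, 1.03 kb from the oppositely directed Wrap53.

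The 250 bases before the annotated start are shown for 3 of these genes: the pair with by far the highest levels, Mdm2 and Slc35e3, and Cpm, which had the largest difference between genotypes. They come from RefSeq (GRCm38.p6) and read 5′ to 3′ on the strand of the gene. The positions are chr10:117710759-117711008 for Mdm2 and chr10:117746359-117746608 for Slc35e3, both on the minus strand, and chr10:117629250-117629499 on the plus strand for Cpm. Capitals mark matches on either strand to the core letters of 4 promoter motifs. The GC box, bound by Sp1 and its relatives, was searched as GGGCGG. The CCAAT box, bound by the factor NF-Y, was searched by the letters of its name. The E-box, bound by factors such as Myc and USF, was searched as CACGTG. The TATA box, bound by the TATA-binding protein, was searched as TATAAA.
Mdm2: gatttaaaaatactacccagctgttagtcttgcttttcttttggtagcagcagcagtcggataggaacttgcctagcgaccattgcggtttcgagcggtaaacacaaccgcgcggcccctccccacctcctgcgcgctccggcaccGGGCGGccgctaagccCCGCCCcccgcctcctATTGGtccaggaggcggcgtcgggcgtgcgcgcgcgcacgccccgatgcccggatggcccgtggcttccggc
Slc35e3: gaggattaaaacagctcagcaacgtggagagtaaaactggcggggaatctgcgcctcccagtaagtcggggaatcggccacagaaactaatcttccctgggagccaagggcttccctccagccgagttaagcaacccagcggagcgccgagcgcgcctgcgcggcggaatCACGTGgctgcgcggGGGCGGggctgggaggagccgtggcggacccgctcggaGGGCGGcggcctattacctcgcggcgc
Cpm: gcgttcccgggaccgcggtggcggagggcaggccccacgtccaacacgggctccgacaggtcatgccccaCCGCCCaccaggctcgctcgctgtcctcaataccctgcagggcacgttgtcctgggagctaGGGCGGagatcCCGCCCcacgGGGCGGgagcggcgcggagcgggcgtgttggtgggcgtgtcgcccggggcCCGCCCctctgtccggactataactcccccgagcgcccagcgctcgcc

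None of these 3 windows held a TATA box. The Mdm2 window held 2 GC boxes and 1 CCAAT box, that of Slc35e3 held 2 GC boxes and 1 E-box, and that of Cpm held 5 GC boxes. Of 32851 mouse promoter windows of the same length, 32.7% held a GC box, 33.8% a CCAAT box, 6.02% an E-box and 12.4% a TATA box. All 7 genes had a window that ends just before the annotated 5′ end used for counting. The 5 locus genes had a GC content between 65.6% and 77.2% there, against a median of 52.4% over all windows, 52.8% for Trp53 and 41.6% for Mdm4. Mdm4 had 2 RefSeq windows, and only that at the 5′ end used for counting is given. A p53 half-site, searched by its consensus on both strands, matched once in the windows of Mdm2 and of Trp53, in none of the other 5, and in 7.13% of all windows. The p53-responsive promoter of Mdm2 is known to lie inside the gene, downstream of this window. Such matches describe letters only.

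Mdm2 was among the most abundant RNAs of these cells in both genotypes. Its counts were 108638, 148035 and 130580 in WT and 126525, 134407 and 138654 in KO, or 0.457%, 0.504% and 0.486% of all gene counts in WT and 0.501%, 0.494% and 0.494% in KO. Per exon length this was 1475, 1625 and 1569 RPKM (CPM per kilobase of exon) in WT and 1616, 1594 and 1595 RPKM in KO. On totals that include Rn45s the groups overlapped, and WT replicate 1 was the lowest library. The Rn45s share was higher in every KO library than in any WT library. On totals without Rn45s this overlap was lost, with every KO library above every WT library. By mean RPKM, Mdm2 ranked 19 of 12947 tested genes in WT and 17 in KO, with single libraries between rank 16 and rank 21. Its mean level was 178.8 times that of the median tested gene in WT and 182.9 times in KO. Genes above it were mainly noncoding RNAs (Rmrp, Rn45s, Rpph1), ribosomal protein genes and abundant cytoskeletal or cytosolic genes such as Actb and Eef1a1. Gapdh, at rank 44 in WT with 1035 ± 22 RPKM (SD, n = 3), was below it.

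The 3 tested genes nearest to Mdm2 in log2 RPKM over the 6 libraries were Ppia, the cyclophilin A gene, and the ribosomal protein genes Rps26 and Rplp0. Their root mean square differences from Mdm2 were 0.07, 0.10 and 0.11 on the log2 scale. Ppia was at 1569 ± 11 RPKM in WT and 1525 ± 21 RPKM in KO, against 1556 ± 76 and 1602 ± 12 RPKM for Mdm2 (SD, n = 3 each). On chromosome 10, Mdm2 ranked 3 of 613 tested genes in either genotype. It alone held between 9.27% and 10.2% of all counts on that chromosome.

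**Figure D1:**
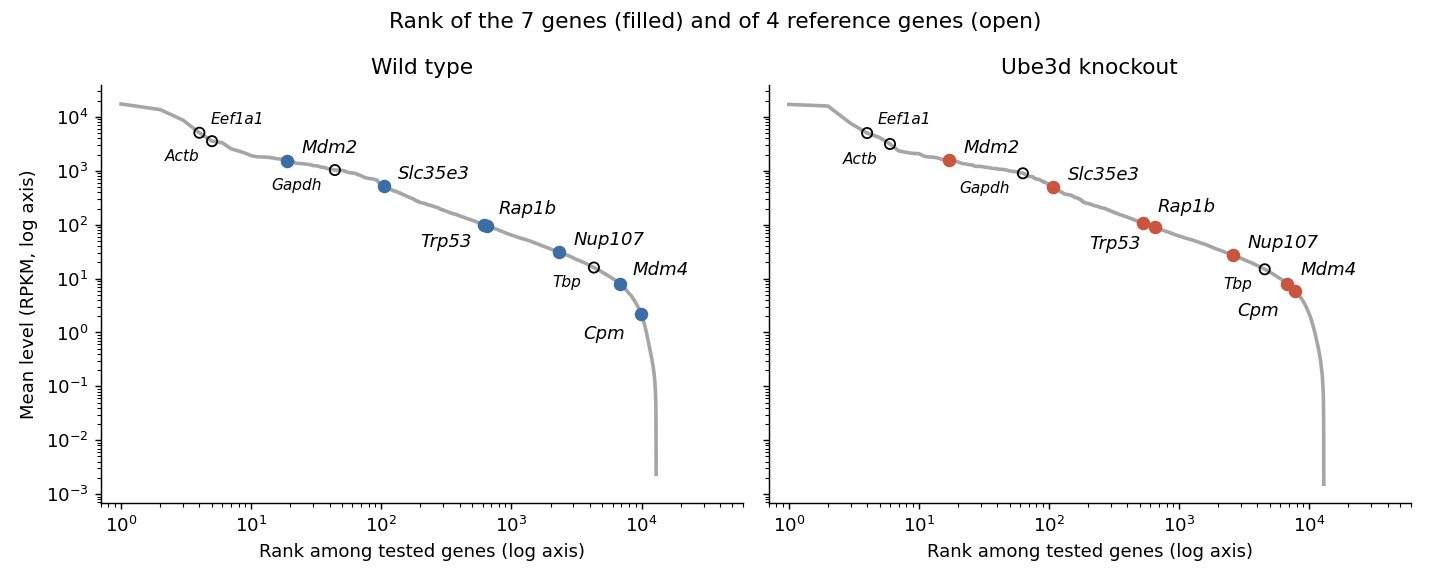
Mean RPKM (log axis) of all tested genes against their rank (log axis) in WT and in KO, with the 7 genes as filled points and 4 reference genes as open points; Mdm2 lies at rank 19 in WT and 17 in KO, and Mdm4 near the middle of the list at ranks 6840 and 6801.

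Slc35e3, which encodes a member of a family of nucleotide sugar transporters, was the only other locus gene at such a level. It had 513, 545 and 523 RPKM in WT and 492, 499.5 and 489 RPKM in KO, which put it at rank 104 in WT and rank 108 in KO. Every KO library was below every WT library, by a small step (log2 fold change −0.11, SE 0.03). The ratio of Mdm2 to Slc35e3 was 2.95 ± 0.07 in WT and 3.25 ± 0.05 in KO (SD, n = 3 each), also without overlap. Together these 2 genes gave between 95.3% and 95.9% of the counts of the 5 locus genes. They span 57.5 kb.

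The level dropped sharply on both sides of that pair. Cpm encodes carboxypeptidase M, a membrane-bound enzyme that trims basic residues from peptide ends. Although it ends 1.52 kb from Mdm2, it had 276, 364 and 297 counts in WT, or 2.24, 2.38 and 2.13 RPKM. Mdm2 was therefore 693 ± 40 times higher than Cpm per length in WT and 272 ± 21 times higher in KO. On the other side, Nup107, a scaffold subunit of the nuclear pore, had 30.5, 30.7 and 31.9 RPKM in WT and 28.3, 26.9 and 26.7 RPKM in KO. Slc35e3 exceeded it 17.0 ± 0.7-fold in WT and 18.1 ± 0.6-fold in KO. Rap1b encodes a small GTPase of the Ras family that acts in integrin adhesion. It had 96.2, 98.7 and 104.8 RPKM in WT and 108.3, 107.9 and 108.7 RPKM in KO, at rank 617 in WT and rank 527 in KO.

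Beyond the locus, 22 further genes are listed within about 1 Mb on either side, of which 9 were tested and 6 had no count in any library. Their median was 7.97 RPKM in WT, against 8.70 RPKM over all tested genes. Only Cct2, a subunit of the cytosolic chaperonin, was among the highest 5% of tested genes, at 207 ± 6.3 RPKM in WT. The nearest tested genes on either side were Cpsf6, a subunit of cleavage factor I in 3′-end processing, at 22.2 ± 0.5 RPKM, and Mdm1 at 4.55 ± 0.29 RPKM in WT. Mdm1 shares its name with Mdm2 because both were found on the same double minutes. Of the 9 genes, 2 rose in KO (Cpsf6 and Yeats4) and 3 fell (Rab3ip, Cct2 and Lyz2), with a median log2 fold change of 0.01. Lyz2 rests on only 63 counts over the 6 libraries (log2 fold change −1.55, SE 0.50). Over all tested genes 61.4% were called in either direction by the same edgeR test (adjusted p under 0.05), 30.3% higher and 31.2% lower.

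**Figure D2:**
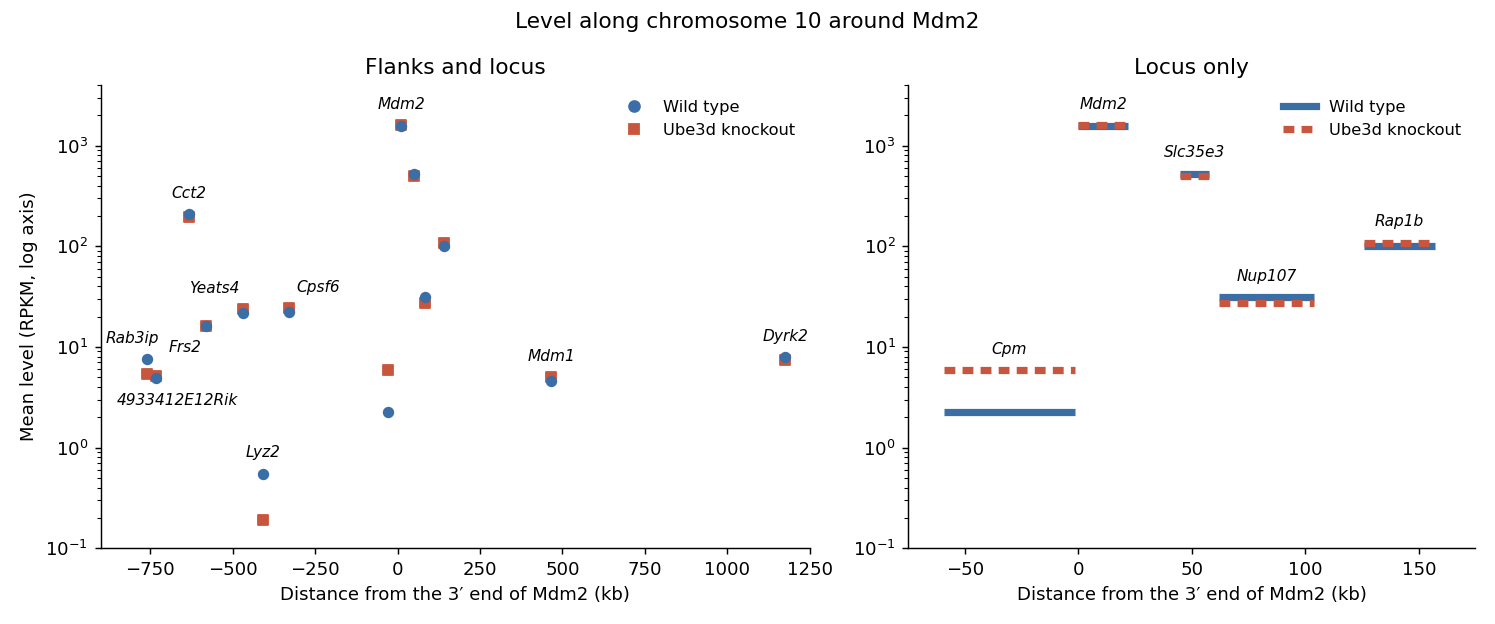
Mean RPKM (log axis) of tested genes on chromosome 10 against distance from the 3′ end of Mdm2, for the locus with its flanks (left, points at gene centres) and for the 5 locus genes as bars over their length (right). Mdm2 and Slc35e3 stand above all other genes shown, and Cpm is the locus gene whose WT and KO levels are farthest apart.

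Mdm4 was expressed at a middling level and Trp53 at a high one. Mdm4 had 6.82, 8.67 and 8.13 RPKM in WT and 8.59, 7.60 and 7.87 RPKM in KO. The groups overlapped, and WT replicate 1 was again the lowest. Its rank was 6840 in WT and 6801 in KO, close to the middle of the tested genes. Trp53 had 98.7, 97.3 and 92.1 RPKM in WT and 85.8, 91.8 and 91.6 RPKM in KO, with every KO library below every WT library by a narrow margin. The closest were WT replicate 3 at 171.95 CPM and KO replicate 2 at 171.56 CPM. Rn45s held 7.28% and 10.2% of the totals of these libraries, and on totals without Rn45s the groups overlapped. Trp53 ranked 644 in WT and 657 in KO. The ratio of Mdm2 to Mdm4 per exon length was 199 ± 15 in WT and 200.1 ± 11 in KO, with overlap. The ratio of Mdm2 to Trp53 was 14.9, 16.7 and 17.0 in the WT libraries and 18.8, 17.4 and 17.4 in the KO libraries, without overlap. Trp53 exceeded Mdm4 by 12.3 ± 1.9-fold in WT and 11.2 ± 1.1-fold in KO.

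In WT the order of the levels per length was Mdm2, Slc35e3, Rap1b, Trp53, Nup107, Mdm4 and Cpm. Rap1b and Trp53 were the only neighbours in this order whose libraries overlapped, at 99.9 ± 4.4 and 96.0 ± 3.5 RPKM. In KO the order was the same, and no neighbours overlapped. The gap between Mdm4 and Cpm narrowed from 3.50-fold in WT to 1.36-fold in KO.

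**Figure D3:**
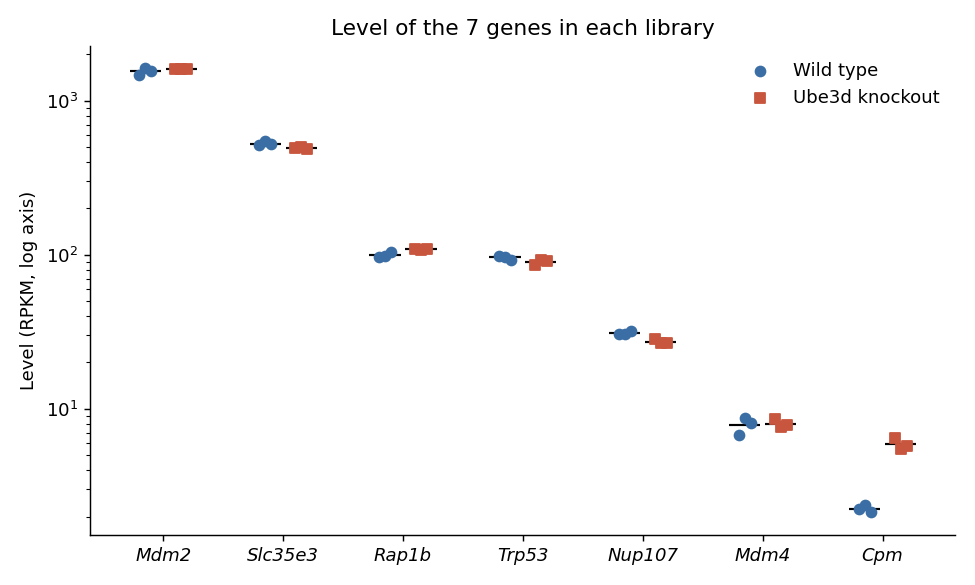
RPKM (log axis) of the 7 genes in each library, with WT as circles, KO as squares and the mean of 3 libraries as a bar. Cpm is the gene with a wide gap between genotypes, while Mdm2 and Mdm4 overlap between them on totals that include Rn45s.

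The genes nearest to Mdm4 in log2 RPKM over the 6 libraries were Cnot4, Stk19 and Lyrm2, with root mean square differences of 0.08 on the log2 scale for each. Those nearest to Trp53 were Nhp2, Prmt1 and Gpi1, with 0.04, 0.04 and 0.06. Around Mdm4, 4 of 16 genes within 0.5 Mb were tested, and none was among the highest 5%. The nearest tested genes were Cntn2 at 0.010 ± 0.007 RPKM and Ppp1r15b at 24.6 ± 0.9 RPKM in WT. Around Trp53, 41 of 65 genes were tested, and 3 of them were among the highest 5%: the translation factor genes Eif4a1 and Eif5a at 563 ± 14 and 495 ± 1.4 RPKM, and the autophagy gene Gabarap at 231 ± 6.2 RPKM. The nearest tested genes, Wrap53 and Sat2, had 5.97 ± 0.13 and 3.87 ± 0.17 RPKM in WT.

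Between genotypes, Cpm stood apart from the other 6 genes. It had 852, 774 and 840 counts in KO, or 6.49, 5.47 and 5.77 RPKM, and every KO library was above every WT library. Its level was 2.6-fold higher in KO (log2 fold change 1.38, SE 0.07), and its rank moved from 9889 in WT to 7827 in KO. A larger change in either direction was seen for 4.60% of the tested genes. The kit was stranded, but whether the authors counted by strand is not stated in the labels. Whether reads that run past the 3′ end of Mdm2 into Cpm were counted was not tested.

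The remaining differences were small. Nup107 was lower in KO by a log2 fold change of −0.20 (SE 0.04), Trp53 by −0.11 (SE 0.03) and Slc35e3 by −0.11 (SE 0.03), while Rap1b was higher by 0.11 (SE 0.03). For Mdm2 the log2 fold change was 0.03 (SE 0.03) and for Mdm4 it was 0.01 (SE 0.06). Without WT replicate 1 these were −0.00095 and −0.07. For Mdm4 the sign also turned without KO replicate 1 (−0.04) and with no filter on low counts (−0.00067). On totals that include Rn45s, 5 of the 7 genes had groups that did not overlap in CPM, 2 with KO above and 3 with KO below. Over all tested genes the groups did not overlap in 63.8%, with KO above in 32.8% and below in 31.0%, so nothing is read from that count.

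**Figure D4:**
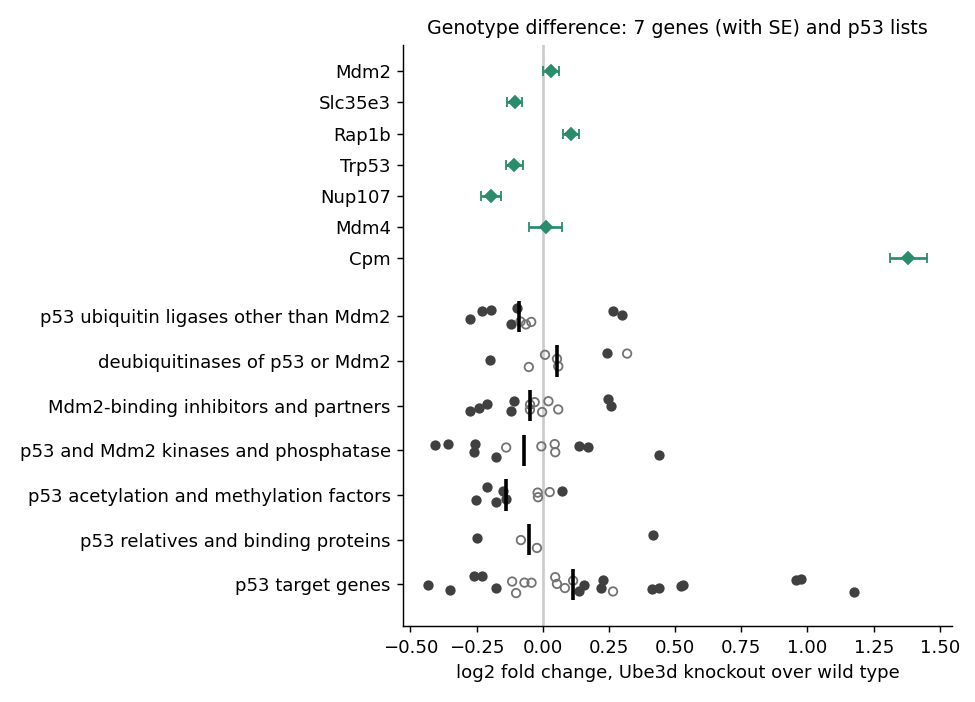
Log2 fold change of KO over WT for the 7 genes (diamonds with SE, n = 3 libraries per genotype) and for the members of 7 p53 gene lists (filled where the edgeR adjusted p was under 0.05, open where not, bar at the list median). Cpm lies at 1.38, while the other 6 genes lie between −0.20 and 0.11.

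Counted in either direction, other regulators of p53 were called about as often as genes in general, and more of them fell than rose. Of 59 symbols on 6 regulator lists, 55 were tested, 10 rose, 22 fell and 23 were not called, with a median log2 fold change of −0.05 against 0.004 over all tested genes. That is 58.2% called, beside 61.4% over all tested genes (30.3% higher and 31.2% lower), so these counts, list by list, are read against that share. The lists were drawn up with earlier results of these data known. Among other p53 ubiquitin ligases, 2 of 10 rose and 5 fell (70.0% called). Huwe1, a large HECT-domain ligase, rose from 861 ± 3.4 to 1043 ± 25 CPM (log2 0.27, SE 0.03, edgeR adjusted p = 9.1e-13). Pja2 fell by 0.19 on the log2 scale (SE 0.03, edgeR adjusted p = 9.7e-08) and Stub1, a chaperone-linked ligase, by 0.23 (SE 0.04, edgeR adjusted p = 2.5e-07). Among the deubiquitinases 1 of 7 rose and 1 fell (28.6% called). Usp7, which removes ubiquitin from both MDM2 and p53, fell from 219 ± 2.8 to 192 ± 1.1 CPM (log2 −0.20, SE 0.03, edgeR adjusted p = 2.3e-08), and Usp42 rose by a log2 of 0.24 (SE 0.05).

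Proteins that bind MDM2 and restrain it include the ARF product of Cdkn2a and several ribosomal proteins. Of 13 tested genes of this list, 2 rose and 5 fell (53.8% called, beside 61.4% over all tested genes). Cdkn2a, which also encodes the CDK inhibitor p16, had 2773, 3286 and 2895 counts in WT and 3292, 3661 and 3913 in KO. That is 112 ± 4.5 and 135 ± 4.6 CPM, a rise of 0.26 on the log2 scale (SE 0.03, edgeR adjusted p = 1.9e-09). Its level per length in WT, 98.7 RPKM, was close to the 96.0 RPKM of Trp53, and gene counts do not separate its 2 products. Rps7 rose by 0.24 (SE 0.03) and Npm1, nucleophosmin, fell from 2250.0 ± 103.4 to 1960.5 ± 32.3 CPM (log2 −0.21, SE 0.03, edgeR adjusted p = 5.6e-09). Rpl26 is listed at 0 in all 6 libraries. Since every cell needs this ribosomal protein, that 0 is not read as absence.

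Of 12 genes for kinases and a phosphatase that act on p53 or MDM2, 3 rose and 5 fell (66.7% called, beside 61.4% over all tested genes). The DNA damage kinase gene Atr rose from 59.0 ± 1.3 to 80.6 ± 2.0 CPM (log2 0.44, SE 0.04, edgeR adjusted p = 1.9e-15). Csnk1a1 and Hipk2 fell by 0.26 (SE 0.03) and 0.41 (SE 0.05) on the log2 scale. Of 9 acetylation and methylation factors 1 rose and 5 fell (66.7% called), among them Hdac1 (log2 −0.25, SE 0.04), Prmt5 (log2 −0.15, SE 0.04) and Sirt1 (log2 −0.21, SE 0.06). Of the p53 relatives, Trp73 is listed at 0 in all libraries and Trp63 had at most 5 counts. Of the 4 tested p53-binding protein genes, Trp53bp1 fell (log2 −0.25, SE 0.03) and Ppp1r13b rose (log2 0.41, SE 0.08).

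Of 27 listed p53 target genes 25 were tested, 11 rose and 5 fell, with a median log2 fold change of 0.11. That is 64.0% called, close to the 61.4% over all tested genes. By direction, 30.3% of all tested genes were called higher and 31.2% lower. This list too was drawn up with earlier results of these data known, so no lean to either direction is read from its counts. Without WT replicate 3 there were 3 that fell, and without KO replicate 3 there were 2. Cdkn1a, the CDK inhibitor p21, had 40.8, 38.8 and 40.2 CPM in WT and 89.0, 92.3 and 91.1 CPM in KO, so that the groups were far apart (log2 1.18, SE 0.04, edgeR adjusted p = 2.1e-36). Zmat3 rose by 0.97 (SE 0.03) and Trp53inp1 by 0.96 (SE 0.05) on the log2 scale. These and Cdkn1a were named for the smallest adjusted p of the list, and all of them rose. Mdm2, itself a p53 target, was at 4823 ± 235 CPM in WT and 4964 ± 38 CPM in KO. Its groups overlapped on totals that include Rn45s. Perp and Pmaip1 are listed at 0 in all libraries, which, as for Rpl26, is not read as absence.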

How the data were processed

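RNA of 3 wild-type and 3 Ube3d knockout libraries was measured. Per the file headers, the deposited table holds raw counts for each gene beside its exon coordinates and exon length. The submitters' processing notes name STAR 2.6.1d and featureCounts 1.6.3, with mm10 and GRCm38. Strandedness of the counting and handling of multi-mapping reads were not given in the sources used here. Of the 7 genes, 7 overlapped the RefSeq GRCm38.p6 gene of the same symbol. A deposited table of 1693 downstream-of-gene regions carries no names and was not used here.

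Groups and replicate numbers came from the titles. The genes, gene lists and tests were chosen with earlier results of these data known. CPM and RPKM were computed from total counts and exon length. Genotypes were compared over the whole table with edgeR 4.0.16 (quasi-likelihood F test, robust, TMM scaling, filterByExpr at its minimum count 10 and total count 15) in R 4.3.3. P-values were two-sided, adjusted by Benjamini-Hochberg over 12947 genes, with calls under 0.05. Each SE was obtained by dividing the size of the log2 fold change by the square root of F. The test was checked on simulated counts. Replicates of a genotype differed by more than sampling noise (mean chi-square per gene 2.05 to 6.50). Named were all 7 genes, the nearest and the most abundant window genes, the 3 genes nearest in level, up to 3 genes per list by adjusted p, and Cdkn2a, Usp7 and Cdkn1a; Yeats4, Rab3ip, Lyz2, Col1a1, Ly6a, Dcn, Trp63, Trp73, Rpl26, Perp and Pmaip1 were named after their values were seen. The ligase list holds both symbols of 1 gene, Cop1 and Rfwd2, and only Rfwd2 is in the table. Alternatives were RLE size factors, DESeq2 1.42.0, limma-voom 3.58.1, other filters, the replicate block, library sizes without Rn45s and leaving out each library; TMM-scaled levels were added after the data were seen. Levels and ranks were computed in pandas 2.3.3 with NumPy 2.4.6 under Python 3.11.15, and plots were drawn in matplotlib 3.10.9.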

Additional observations from a re-analysis of the deposited data

How the results depend on the processing

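Over the 13 alternatives of the genotype fit, the log2 fold changes of Slc35e3 (−0.12 to −0.09), Nup107 (−0.22 to −0.18), Trp53 (−0.14 to −0.07), Rap1b (0.08 to 0.14) and Cpm (1.31 to 1.43) kept their direction. Those of Mdm2 (−0.00095 to 0.05) and Mdm4 (−0.07 to 0.07) had either sign. The counts of called genes over the whole table and among the p53 regulators stayed within 1.5 times of those reported. The p53 targets that fell numbered between 2 and 5 when 1 library was left out (the cause was not tested).

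Same-numbered libraries did not deviate together (correlations −0.11, 0.0034 and −0.14). With 3 libraries per genotype this cannot exclude pairing, and the reported fit did not pair the samples. With the replicate block, 3840 genes were called higher and 3976 lower, against 3918 and 4037 without it, and DESeq2 called 3418 and 3609.

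Ranks depended on the length correction, except that of Nup107 in KO, which moved by less than its spread between libraries. By CPM in place of RPKM the WT ranks were 6 for Mdm2, 28 for Slc35e3, 8486 for Cpm, 2251 for Nup107, 943 for Rap1b, 3745 for Mdm4 and 1060 for Trp53. In KO they were 6 for Mdm2, 29 for Slc35e3, 5780 for Cpm, 2557 for Nup107, 825 for Rap1b, 3642 for Mdm4 and 1118 for Trp53. By CPM, the Mdm2 to Mdm4 ratio was 83.8 in WT and 84.3 in KO, Mdm2 to Trp53 26.9 and 29.6, and Trp53 to Mdm4 3.14 and 2.85. By construction this setting drops the exon lengths. Leaving out 1 KO library gave ranks of 16 to 17 for Mdm2 and 108 to 109 for Slc35e3. Ranks over all genes with a count and with TMM-scaled library sizes moved by less than the spread between libraries.

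Depth limits the low genes most. Cpm rests on 276 to 364 counts per WT library.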
